A study of Mus musculus with 52 samples.

Results

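The peaks described here are those of H3K27ac and H3K4me3 after 8 days of reprogramming, in Mbd3+/+ and in Mbd3flox/- cells. They were taken from the 4 lists whose sample titles name day 8 of doxycycline and 1 of these marks. The 4 lists held 90080 peaks, of 928298 in all 43 lists used. The cells were mouse embryonic fibroblasts (MEF) that carried the reprogramming factors Oct4, Sox2, Klf4 and Myc as doxycycline-inducible transgenes. Doxycycline was given at 2 ug/ml from day 0, and induced cells grew in N2B27 medium with serum replacement, 2i and LIF, in contrast to the serum medium of MEF. Mbd3+/+ cells have both Mbd3 alleles, and Mbd3flox/- cells have 1 floxed and 1 null allele. Each genotype was a clonal series, and the clones also differed in their Oct4-GFP reporter, GOF18 deltaPE in +/+ cells and complete GOF18 in flox/- and -/- cells. The cells were not sorted by that reporter. Genotype therefore cannot be told apart from clone and reporter. Lists of MEF before doxycycline, of day 4, of induced pluripotent stem (iPS) cells and of Mbd3-/- embryonic stem (ES) cells served to describe the day 8 peaks. Every group was a single library, which leaves the values below without a replicate check, and intervals (95% Wilson for shares, Newcombe for differences in percentage points) cover the counting of peaks only. Mbd3 binding was not read in flox/- cells, and so the label of that genotype has no check of its own. Fibroblast and stem cell marker genes could not be placed on the lists either, since no annotation of their genome build, mm9, was used.

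Mbd3 is a subunit of NuRD, a complex that joins histone deacetylases to the nucleosome remodeller Mi2B. H3K27ac is an acetyl mark of active promoters and enhancers, and NuRD is able to remove it. H3K4me3 marks promoters, those of silent developmental genes included, where in pluripotent cells it can lie beside H3K27me3, the Polycomb mark. During reprogramming, fibroblast enhancers lose acetylation and enhancers of the pluripotent state gain it.

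A day 8 peak was called shared if it overlapped a peak of the same mark in the other genotype by at least 1 bp, and otherwise +/+ only or flox/- only. These names mean that no peak was listed in the other genotype, not that the mark was absent there. For H3K27ac, 22484 of 39463 +/+ peaks (57.0%) were +/+ only and 6567 of 21237 flox/- peaks (30.9%) were flox/- only. With equal numbers of top peaks, 59.0% of +/+ and 55.9% of flox/- H3K27ac peaks were shared. Lists cut to the same length have similar shared parts largely by construction. That setting therefore cannot tell what part list length had in the +/+ surplus. For H3K4me3 the larger one-genotype class lay on the other side. There, 1036 of 13752 +/+ peaks (7.53%) and 4368 of 15628 flox/- peaks (27.9%) had no counterpart. One-genotype peaks were narrower and of lower score than shared ones in each list. Among H3K27ac peaks the median width was 1566 bp for +/+ only and 2432 bp for shared +/+ peaks, and 2781 bp for flox/- only and 3193 bp for shared flox/- peaks. Most one-genotype peaks were not edges of a broad shared domain, since only 3.64% of +/+ only and 5.13% of flox/- only H3K27ac peaks lay within 1 kb of a peak of the other genotype. For H3K4me3 these shares were 20.6% and 9.98%.

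The share of peaks without a counterpart differed along the authors' score, which ranks peaks within a list. Each list was cut into 5 equal score groups. From the highest to the lowest group, the +/+ only share of H3K27ac peaks went from 20.8% to 78.5% and the flox/- only share from 12.9% to 49.2%. For H3K4me3 the shares went from 0.145% to 23.9% in +/+ and from 1.95% to 70.0% in flox/- cells. Thus 4 of 2751 peaks in the top group of the +/+ H3K4me3 list, but 61 of 3126 in that of the flox/- list, had no counterpart. The strongest one-genotype H3K27ac peaks also differed in kind. In the top group of the flox/- list, 76.1% of the 547 flox/- only peaks lay at sites acetylated in iPS cells and not in MEF, and 0.366% at sites acetylated in MEF and not in iPS cells. In the top group of the +/+ list these shares were 3.10% and 47.0% of 1643 peaks.

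**Figure D1:**
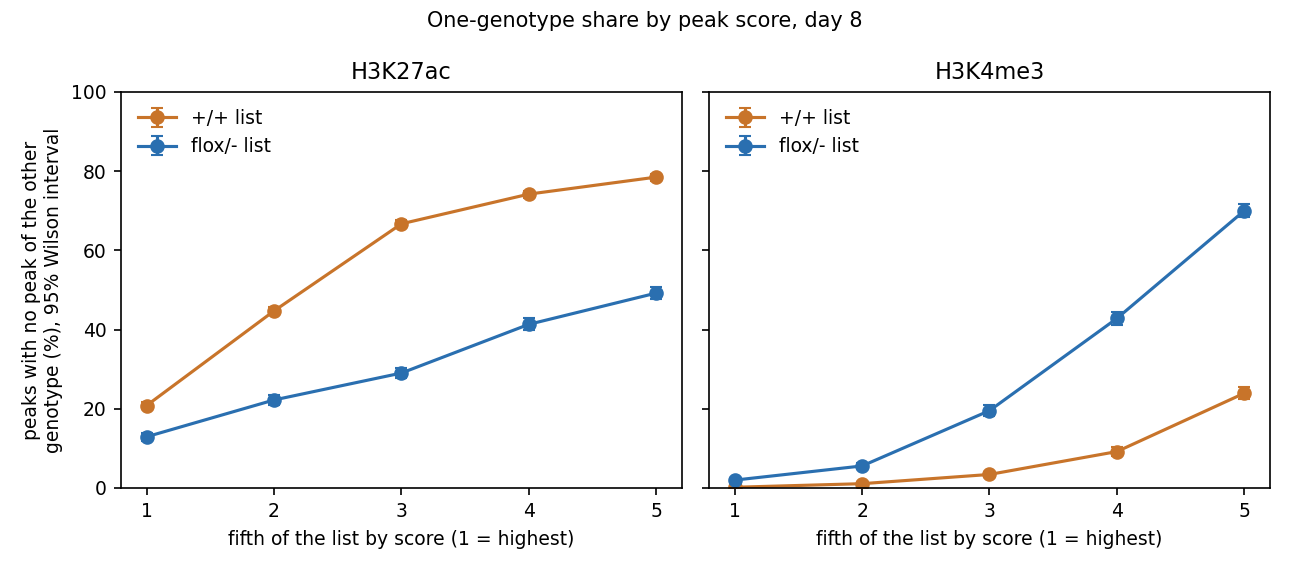
Share of day 8 peaks without a peak of the other genotype (vertical axis, %, with 95% Wilson intervals) in each of 5 equal score groups of a list (horizontal axis, 1 = highest scores), for H3K27ac (left) and H3K4me3 (right). In all 4 lists the share was lowest in group 1 and highest in group 5, and group 1 of the H3K4me3 lists held 0.145% and 1.95%.

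Each peak was then given a state from the lists of its own mark in MEF and iPS cells of either genotype. Constant sites had a peak in both cell types, fibroblast-type sites in MEF alone, pluripotent-type sites in iPS cells alone, and the rest in neither. The classes of H3K27ac differed in these states. Of the +/+ only peaks, 54.4% were fibroblast-type and 6.42% pluripotent-type. Of the flox/- only peaks, 4.80% were fibroblast-type and 55.3% pluripotent-type. The differences, flox/- only minus +/+ only, were -49.6 points (-50.4 to -48.8) for fibroblast-type and 48.9 points (47.7 to 50.1) for pluripotent-type sites. Peaks shared by the genotypes were constant in 72.8% of the +/+ and 77.9% of the flox/- list, so that most of them were sites acetylated throughout. Mbd3-/- ES cells, a list that played no part in the states, had H3K27ac at 66.5% of flox/- only and 29.9% of +/+ only peaks, a difference of 36.6 points (35.3 to 37.9). These 3 differences kept their sign under each of the other settings tried. They were smallest with every peak cut to 500 bp, at -26.9, 29.3 and 15.4 points. With the state read in 500 bp around the midpoint, they were -51.5, 50.5 and 35.4 points. That window gives every day 8 peak the same width for the state, while the split into classes kept full widths.

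**Figure D2:**
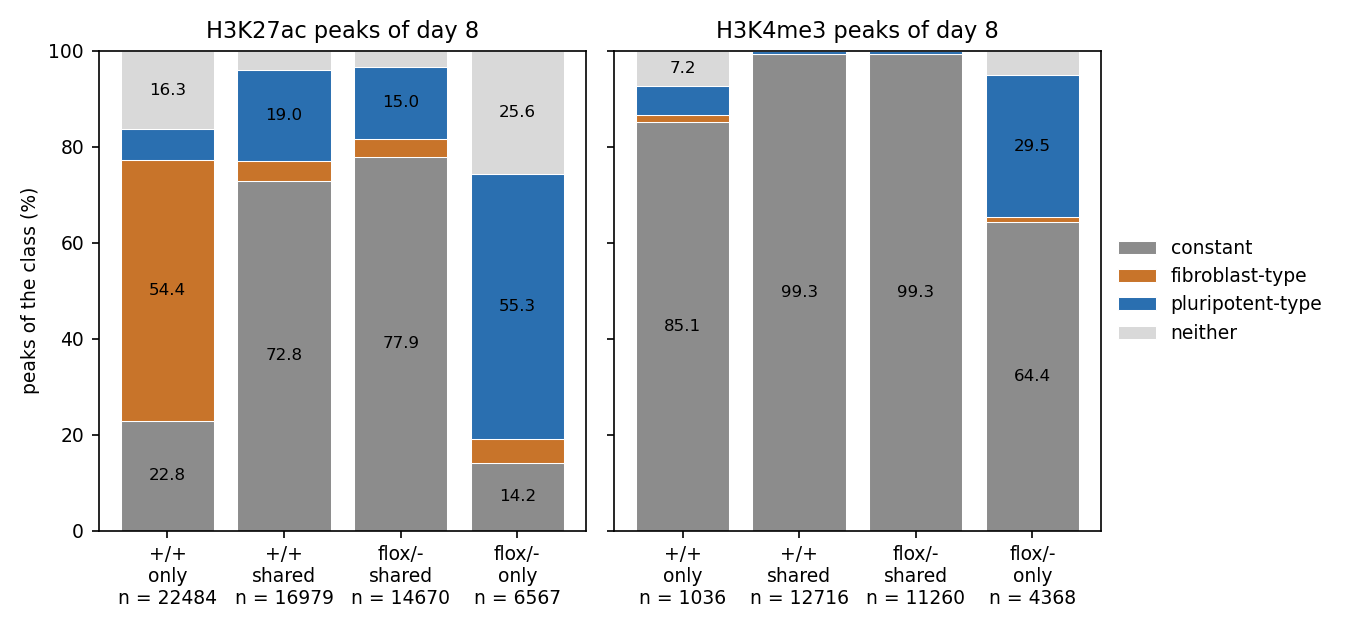
States of the day 8 peaks (vertical axis, % of the class) in the +/+ only, shared and flox/- only classes of H3K27ac (left) and H3K4me3 (right), with the number of peaks under each bar. For H3K27ac the fibroblast-type share was 54.4% of +/+ only peaks and the pluripotent-type share 55.3% of flox/- only peaks, and 99.3% of shared H3K4me3 peaks were constant in both lists.

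The 2 lists are of unequal length, and the numbers of one-genotype peaks by state show how the surplus of +/+ peaks was spread. At constant sites there were 5132 +/+ only and 935 flox/- only peaks, or 5.49 for each flox/- only peak (5.12 to 5.89, exact interval). At fibroblast-type sites the numbers were 12238 and 315, a ratio of 38.9 (34.7 to 43.6). At pluripotent-type sites the order was turned, with 1444 and 3633 peaks and a ratio of 0.397 (0.374 to 0.423), although the flox/- list was the shorter one. Sites in neither cell type gave 2.18 (2.06 to 2.31), which became 0.342 with equal numbers of top peaks. Constant sites were taken as a common scale for lists of unequal length. Their own ratio differed by place, at 15.0 where H3K4me3 of day 8 was listed and 3.83 where it was not. The relative values that follow do not separate these places. Relative to constant sites, the +/+ to flox/- ratio was 7.08 (6.20 to 8.08) at fibroblast-type and 0.0724 (0.0660 to 0.0794) at pluripotent-type sites. With equal numbers of top peaks these values were 5.80 and 0.0580. Read depth is unknown from the peak lists, and its part in the counts at constant sites was not tested.

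The same split on day 4 gave values nearer to 1 on the relative scale at fibroblast-type and pluripotent-type sites, and farther from 1 at sites in neither cell type. There, 31.7% of +/+ and 43.3% of flox/- H3K27ac peaks had no counterpart, and the flox/- list was the longer one. Relative to constant sites, the day 4 ratio was 2.38 (2.20 to 2.58) at fibroblast-type and 0.192 (0.171 to 0.215) at pluripotent-type sites. Over 13 settings the fibroblast-type value ran from 1.90 to 2.63 on day 4 and from 3.53 to 7.95 on day 8, and the pluripotent-type value from 0.175 to 0.366 and from 0.0432 to 0.155. The ranges of the 2 days did not overlap for either state. At sites in neither cell type the value was 0.208 on day 4 and 0.397 on day 8, and the ranges overlapped, from 0.196 to 0.469 and from 0.233 to 0.499. With 1 library on each day and in each genotype, the difference between days has no replicate check. The classes also differed in make-up, since 51.6% of the day 4 flox/- only peaks were in neither MEF nor iPS cells, against 25.6% on day 8.

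**Figure D3:**
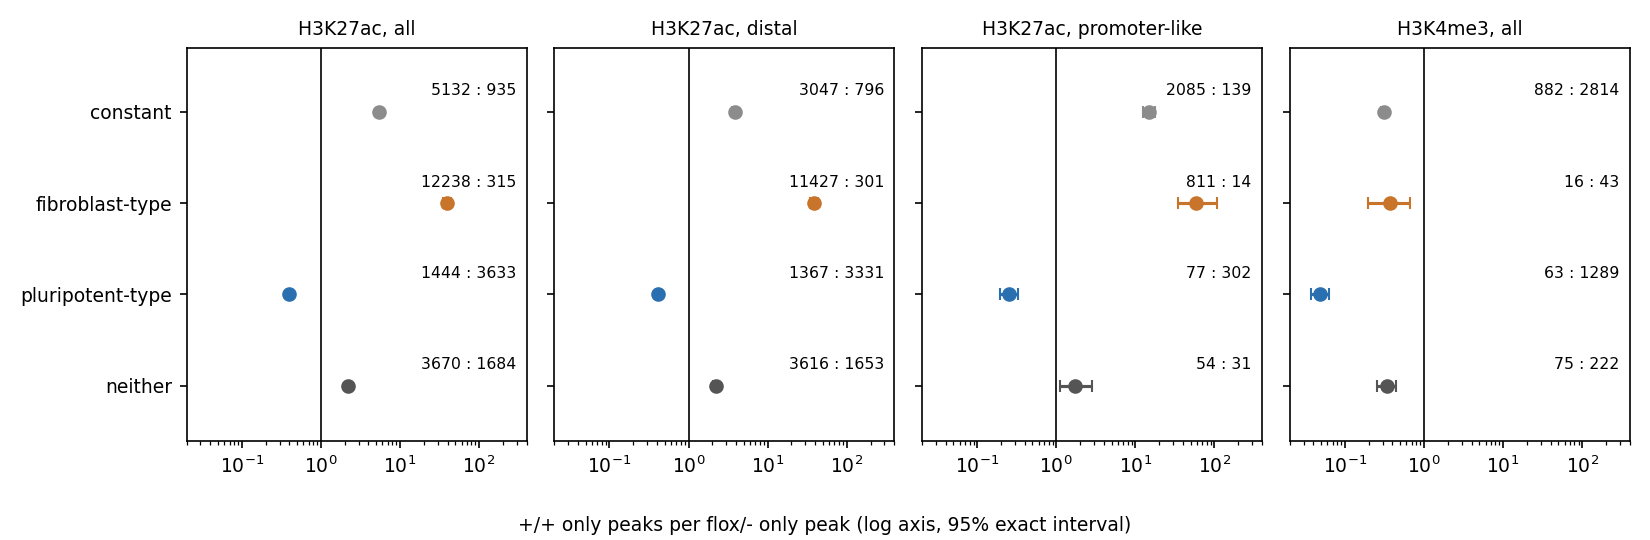
Number of +/+ only peaks for each flox/- only peak on day 8 (horizontal log axis, with exact 95% intervals), by state, for all, distal and promoter-like H3K27ac and for H3K4me3; the 2 counts stand beside each point. Fibroblast-type H3K27ac sites lay at 38.9 and pluripotent-type sites at 0.397, on either side of 1, whereas all 4 states of H3K4me3 lay below 1.

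Peaks of H3K27ac were called promoter-like if they overlapped H3K4me3 of day 8 in either genotype, and distal otherwise. Of the +/+ only peaks 86.5% were distal, and of the flox/- only peaks 92.6%, a difference of 6.06 points (5.27 to 6.82). That difference rests on the H3K4me3 lists used, for it turned to -2.75 points (-3.99 to -1.53) when H3K4me3 of all stages was counted. Distal and promoter-like peaks differed more in state. Among the 3027 promoter-like +/+ only peaks, 68.9% were constant and 26.8% fibroblast-type, while among distal ones 15.7% were constant and 58.7% fibroblast-type. Among the 486 promoter-like flox/- only peaks, 62.1% were pluripotent-type and 28.6% constant, and among distal ones 54.8% and 13.1%. The ratio of +/+ only to flox/- only peaks at constant sites was accordingly 15.0 (12.6 to 17.9) at promoter-like and 3.83 (3.54 to 4.14) at distal sites. At pluripotent-type sites it was 0.255 (0.196 to 0.328) and 0.410 (0.385 to 0.437).

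The 12238 fibroblast-type +/+ only peaks were sites that carried acetylation in MEF of at least 1 genotype and were still listed on day 8 in +/+ cells. Of these, 83.7% had H3K27ac in both MEF lists, so most were not particular to MEF of 1 genotype. On day 4, 61.2% had a peak in +/+ and 25.5% in flox/- cells. Of the sites, 93.4% were distal. Oct4 peaks of day 4, from +/+ and from flox/- cells, lay at 17.4% and 12.0% of the sites, and flox/- Oct4 peaks of day 8 at 3.28%. H3K27me3 of either iPS list lay at 7.26% and H3K27ac of -/- ES cells at 13.1%. The 315 fibroblast-type flox/- only peaks were less of one kind, with H3K27ac in both MEF lists at 48.9% and in -/- ES cells at 39.0%.

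The 3633 pluripotent-type flox/- only peaks were acetylated in both iPS lists at 56.5% and in -/- ES cells at 81.2%. Few had been acetylated on day 4, with 23.7% in flox/- and 1.98% in +/+ cells. Oct4 of flox/- cells lay at 21.6% of them on day 4 and at 53.5% on day 8, and Mi2B at 7.60% and 32.0%. In +/+ iPS cells, 29.9% had Oct4, 51.0% Mi2B and 22.5% Mbd3. Over flox/- only peaks of all states, Oct4 and Mi2B lay at 20.1% and 36.3% in +/+ iPS cells, but at 7.11% and 6.58% in flox/- iPS cells. The flox/- iPS lists were shorter, with 3331 Oct4 and 3462 Mi2B peaks against 11881 and 26992, and the part of that was not tested. H3K27me3 had been listed in MEF of either genotype at 12.9% of the pluripotent-type flox/- only peaks. The 1444 pluripotent-type +/+ only peaks had less of the iPS and ES marks, with both iPS lists at 27.2% and -/- ES cells at 55.1%. On day 4 they were acetylated at 36.5% in +/+ and at 35.4% in flox/- cells, the latter being sites which the flox/- lists held on day 4 and not on day 8.

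Constant sites, acetylated in MEF and in iPS cells, made up 5132 of the +/+ only and 935 of the flox/- only peaks. The +/+ only peaks had H3K27ac in -/- ES cells at 78.1% and on day 4 at 74.7% in +/+ and 60.0% in flox/- cells. Both iPS lists held 42.3% of them, and Mi2B of +/+ day 8 lay at 46.8%, above its share at the other states of +/+ only peaks. The flox/- only peaks had H3K27ac in -/- ES cells at 88.0% and in both iPS lists at 61.5%. On day 4 they had it at 39.1% in flox/- and 8.02% in +/+ cells, and flox/- day 8 Oct4 lay at 40.1%.

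Peaks found in neither MEF nor iPS cells form a class of their own, 3670 +/+ only and 1684 flox/- only. Their H3K27ac was in part already there on day 4. The +/+ only peaks had it at 46.2% in +/+ and 35.4% in flox/- cells, and the flox/- only peaks at 3.15% and 36.5%. Oct4 of day 4 in +/+ cells lay at 35.7% of the +/+ only peaks, against 17.4% of the fibroblast-type +/+ only peaks. Oct4 of day 4 in flox/- cells lay at 28.5% of the +/+ only peaks, also above its share of the fibroblast-type +/+ only peaks given above. At constant +/+ only peaks the +/+ and flox/- day 4 Oct4 shares were 18.2% and 18.7%. Those of pluripotent-type +/+ only peaks were only slightly below those of the neither class, so high day 4 Oct4 was not particular to it. The flox/- only peaks in neither cell type had no gap to fibroblast-type ones. There, flox/- day 4 Oct4 lay at 25.3% of them and at 26.3% of the fibroblast-type flox/- only peaks. Only 8.88% of the +/+ only peaks, but 28.1% of the flox/- only peaks, had H3K27ac in -/- ES cells.

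**Figure D4:**
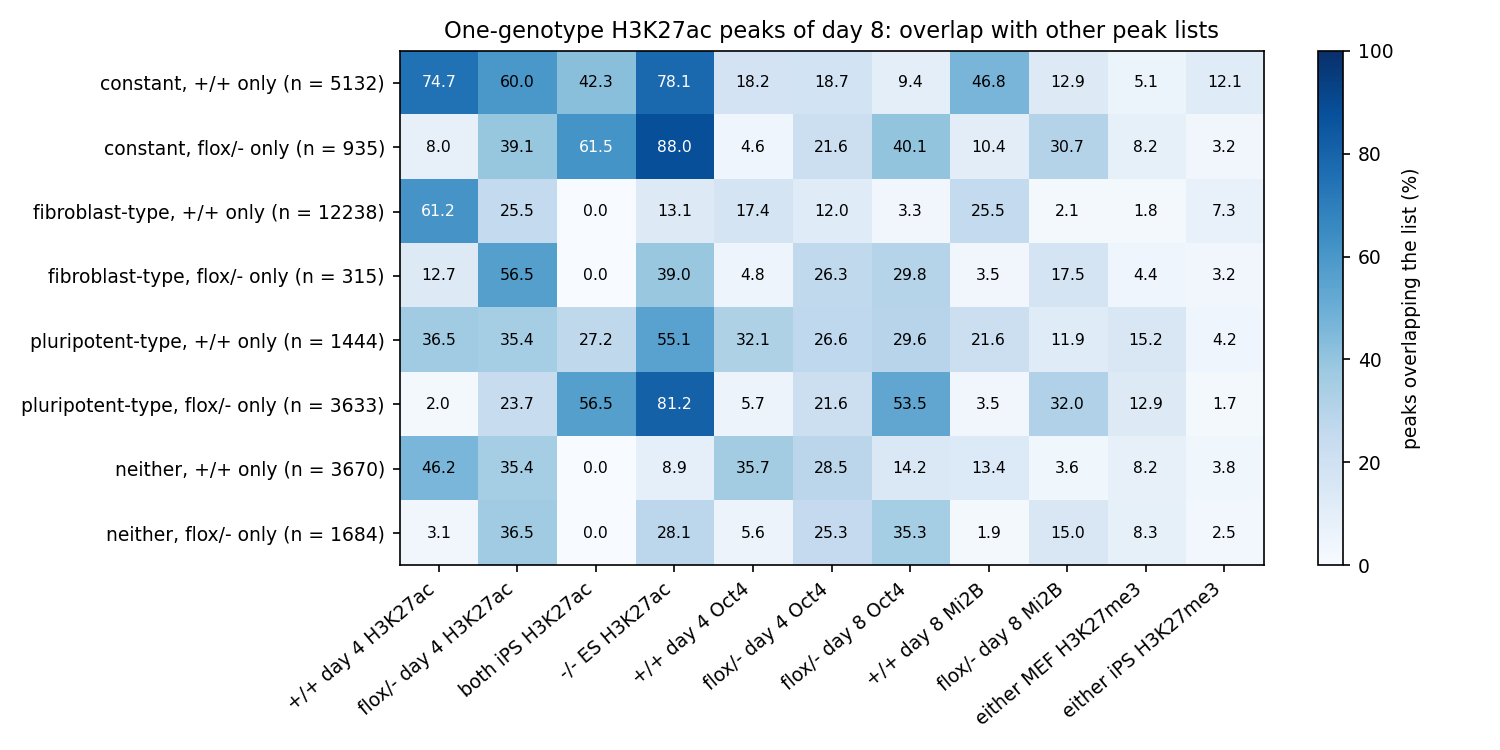
Overlap of one-genotype H3K27ac peaks of day 8 (rows, by state and genotype, with their number) with other peak lists (columns); colour and numerals give the share of peaks in %. Fibroblast-type +/+ only peaks overlapped +/+ day 4 acetylation at 61.2%, and pluripotent-type flox/- only peaks overlapped -/- ES acetylation at 81.2% and flox/- day 8 Oct4 at 53.5%.

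Over whole classes, flox/- day 8 Oct4 lay at 45.8% of flox/- only, 38.5% of shared flox/- and 8.16% of +/+ only H3K27ac peaks. The difference between the one-genotype classes was 37.6 points (36.4 to 38.9) and was 27.4 points in 500 bp around peak midpoints. It was lost where every overlap had to cover 50% of the peak, with Oct4 at 2.11% and 1.90% of peaks and a difference of 0.209 points (-0.118 to 0.560). No Oct4 list of +/+ cells on day 8 was used, so Oct4 was read in flox/- cells alone. Mi2B was read in both genotypes, and each one-genotype class overlapped Mi2B of its own cells more than that of the other cells. Mi2B of the same genotype lay at 26.8% of flox/- only and 28.2% of +/+ only peaks, whereas Mi2B of the other genotype lay at 4.05% and 5.46%. Shared peaks, which were also wider, had more Mi2B of the same genotype, at 39.0% in the flox/- and 44.2% in the +/+ list. Between the one-genotype classes, the difference of -1.38 points for the same genotype (-2.59 to -0.145) had no fixed sign. It was 2.30 points at scores of at least 100 and 0.572 points at 50% of the peak covered. The +/+ day 8 Mi2B sample is titled day 8 but has another day in its stage label, and the title was followed. The lists differ in length too, with 23280 Mi2B peaks in +/+ and 13125 in flox/- cells.

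Single regions followed these patterns only in part. Regions were named by score, 5 of each kind, and are given in mm9. Of the 5 highest distal flox/- only H3K27ac peaks, all 5 overlapped Oct4 and Mi2B of flox/- day 8, and 4 were acetylated in +/+ iPS, flox/- iPS and -/- ES cells. The 2 ranked highest, at chr17:31908993-31923277 and chr4:133668128-133680407, had H3K27ac in +/+ MEF and not in flox/- MEF, and were constant sites rather than pluripotent-type. Those at chr15:50727994-50736083 (8090 bp) and chr7:4768848-4779411 (10564 bp) had no H3K27ac in either MEF list and had Oct4 and Mi2B in iPS cells of both genotypes. The peak at chr15:78018376-78027622 (9247 bp) was of another kind. It had H3K27ac in flox/- cells on days 4 and 8 and in no other list of the mark, and H3K27me3 in flox/- MEF, flox/- iPS and -/- ES cells. Of the 5 highest promoter-like flox/- only peaks, 3 had H3K27ac in flox/- MEF and 2 in +/+ MEF. All 5 had it in flox/- iPS cells. Among them, the peak at chr5:110893528-110904417 carried H3K27me3 in MEF of both genotypes and neither active mark there. By day 8 of flox/- cells it had H3K27ac, H3K4me3, Oct4 and Mi2B, and it had all 4 of them in iPS cells of both genotypes.

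The highest +/+ only regions had acetylation from the start. All 5 distal and all 5 promoter-like ones had H3K27ac in +/+ MEF and on day 4 of +/+ cells, and 4 and 5 of them on day 4 of flox/- cells. In +/+ iPS and in -/- ES cells, 2 of the distal and all 5 promoter-like ones had it. Most of these regions were thus constant rather than fibroblast-type. Of the promoter-like regions, 4 kept H3K4me3 in the flox/- day 8 list, where H3K27ac was not listed. The regions at chr12:28021515-28029536 and chr4:87674792-87682048 carried H3K27me3 in -/- ES and flox/- iPS cells beside H3K4me3 and H3K27ac. That at chr9:50910617-50915548 had H3K4me3 in flox/- and not in +/+ cells on day 8. Its nearest flox/- acetylation peak of day 8 was 244.8 kb away. The peak at chr6:93859737-93865791 (6055 bp) was distal by the day 8 lists, although flox/- MEF and both iPS lists had H3K4me3 there. It was constant, with H3K27ac in MEF and iPS lists of both genotypes and in -/- ES cells, and was missing in the flox/- day 8 list alone among all lists of the mark.

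One-genotype regions also stood in runs along the chromosomes. The 2 lists merged into 43355 regions, 51.9% of them +/+ only and 15.1% flox/- only. Runs of at least 5 neighbouring +/+ only regions, uninterrupted by a shared or flox/- only region, held 11967 regions or 53.2% of the class. Runs of flox/- only regions of that length held 650, or 9.90%. The class with more members makes longer runs by number alone, and the part of that in the run lengths was not tested. The longest +/+ only run covered 51 regions at chr16:85308610-87308083, of which 40 had H3K27ac in +/+ MEF, 36 in flox/- MEF and 2 in +/+ iPS cells. A run of 45 regions at chr2:50158722-50840766 had 37 in +/+ MEF, 29 in flox/- MEF, 1 in each iPS list and 1 in -/- ES cells. A run of 46 regions at chr9:41030615-41770141 was less confined to MEF, with 42 and 41 regions in the MEF lists, 16 in +/+ iPS cells and 12 in -/- ES cells. The longest flox/- only run held 13 regions over 4641 kb at chr1:102749171-107389971, none with MEF acetylation, 8 with that of -/- ES cells and 10 with flox/- day 8 Oct4. A tighter run of 11 regions at chr4:124838339-125681764, over 843.4 kb, had H3K27ac at all 11 in +/+ iPS cells and at none in MEF. It overlapped Oct4 at 9 and Mi2B at 8 regions in flox/- day 8 cells, and H3K27me3 at 4 in either MEF list.

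H3K4me3 differed less in kind between the genotypes than H3K27ac. Shared H3K4me3 peaks were constant sites at 99.3% in both lists. Of the +/+ only peaks 85.1% and of the flox/- only peaks 64.4% were constant, and 6.08% and 29.5% were pluripotent-type, a difference of 23.4 points for the latter (21.3 to 25.3). Fibroblast-type H3K4me3 sites were rare, with 1.54% and 0.984%, and the difference of -0.560 points had an interval that included 0 (-1.54 to 0.122). That difference had no fixed sign, for it was 0.109 points at scores of at least 100 and 0.402 for peaks 1000 to 3000 bp wide, while in 6 other settings its interval lay below 0, reaching -22.1 points with peaks cut to 500 bp. The interval also included 0 for H3K4me3 in -/- ES cells, at 87.9% of +/+ only and 89.9% of flox/- only peaks (2.02 points, -0.0492 to 4.31). It lay above 0 in 4 other settings, at 31.7 points with cut peaks, and the difference was -1.35 and -0.211 points at scores of at least 100 and for peaks 1000 to 3000 bp wide. In numbers, the ratio of +/+ only to flox/- only peaks was 0.313 at constant sites (0.290 to 0.338) and 0.0489 at pluripotent-type sites (0.0373 to 0.0630). With equal numbers of top peaks the pluripotent-type difference was 22.3 points.

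Of the 1289 pluripotent-type flox/- only H3K4me3 peaks, 83.8% had the mark in -/- ES cells and 62.7% had H3K27ac of flox/- day 8, against 31.0% with that of +/+ day 8. Oct4 of flox/- day 8 lay at 24.0% and Mi2B at 27.8%. On day 4 the mark was listed at 20.9% in flox/- and 0.621% in +/+ cells. The 2814 constant flox/- only peaks had another surrounding. H3K27me3 lay at 39.8% of them in MEF and at 38.2% in iPS cells, counted over both genotypes, against 9.57% and 11.6% of constant shared flox/- peaks. Constant +/+ only peaks lay between these, with 20.2% and 23.7%. The constant flox/- only peaks had H3K4me3 on day 4 at 92.8% in flox/- and 51.5% in +/+ cells. At 45.1% of these flox/- only peaks, H3K27ac of day 8 was absent from both lists. In MEF, where a peak in either list was part of how these sites were chosen, the flox/- list held 99.9% of them and the +/+ list 55.4%. The flox/- MEF and day 4 lists covered more sequence, 49.0 and 35.8 Mb against 21.1 and 18.7 Mb in +/+ cells, and the part of that in these shares was not tested. The +/+ only H3K4me3 peaks were likewise held by the flox/- day 4 list, at 88.8%, more than by the +/+ day 4 list, at 62.9%.

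On chromosome X the one-genotype share of H3K4me3 was higher than on the autosomes. It was 46.3% of 402 flox/- peaks (41.5 to 51.2) against 27.5%, and 13.2% of 272 +/+ peaks (9.72 to 17.8) against 7.42%. No single autosome reached these values, with highest shares of 32.6% on chromosome 18 in the flox/- and 10.5% on chromosome 6 in the +/+ list. For H3K27ac the X chromosome was close to the autosomes, with 31.1% against 30.9% of flox/- and 58.7% against 56.9% of +/+ peaks. The 186 flox/- only X-linked peaks were constant at 83.9% and had H3K4me3 at 61.8% in +/+ MEF, 51.6% on day 4 of +/+ cells and 96.2% in +/+ iPS cells. The sex of the clones and the state of their X chromosomes were not tested.

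The 2 marks were then read together on 46093 regions merged from all 4 lists. A region can hold several peaks, so its class may differ from that of its single peaks. At 10444 regions H3K4me3 was listed in both genotypes, and of these 72.5% had H3K27ac in both (71.6 to 73.3). A further 2096, or 20.1%, had H3K27ac in +/+ cells alone, and 77, or 0.737%, in flox/- cells alone. The 2096 regions were mostly constant promoters, with H3K27ac at 95.7% in +/+ MEF, 72.3% in +/+ iPS and 92.3% in -/- ES cells, and with H3K27me3 at 29.8% in +/+ iPS cells against 4.03% of regions with both marks in both genotypes. Mi2B of day 8 lay at 61.5% of them in +/+ and 21.9% in flox/- cells, and the +/+ Mi2B list is the longer one. The 77 regions had H3K27me3 at 64.9% in +/+ and 55.8% in flox/- MEF, and H3K27ac at 90.9% in -/- ES cells. H3K4me3 of a shared promoter was thus often listed without H3K27ac in flox/- cells, and the shorter flox/- H3K27ac list moved with this; its part was not tested.

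Regions with both marks in 1 genotype alone were few among all 46093. There were 391 with both marks in flox/- cells alone (0.848%) and 318 with both in +/+ cells alone (0.690%). The 391 were 11.1% of the 3509 regions with flox/- only H3K4me3. The 318 were 41.4% of the 768 regions with +/+ only H3K4me3. Of the 391, 18.9% had H3K27ac and 5.88% had H3K4me3 in +/+ MEF, while 94.4% and 90.3% had them in -/- ES cells. They overlapped Mi2B of flox/- day 8 at 37.1% and Oct4 at 35.3%. The 318 regions were instead held from MEF, with 90.6% for H3K27ac and 77.4% for H3K4me3 in +/+ MEF, and Oct4 of flox/- day 8 lay at 5.35%. Regions with H3K4me3 in flox/- cells alone and no H3K27ac in either genotype numbered 1808, or 51.5% of the 3509 with flox/- only H3K4me3. H3K27me3 lay at 56.7% of them in +/+ MEF, 45.8% in +/+ iPS and 34.6% in -/- ES cells. Among regions likewise without H3K27ac, H3K27me3 in +/+ MEF lay at 67.8% where H3K4me3 was in both genotypes and at 46.8% where it was in +/+ cells alone. Taken by peak, 43.6% of flox/- only and 69.9% of +/+ only H3K4me3 peaks overlapped H3K27ac of their own genotype, a difference of -26.3 points (-29.4 to -23.1) that was -12.0 points with equal numbers of top peaks.

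**Figure D5:**
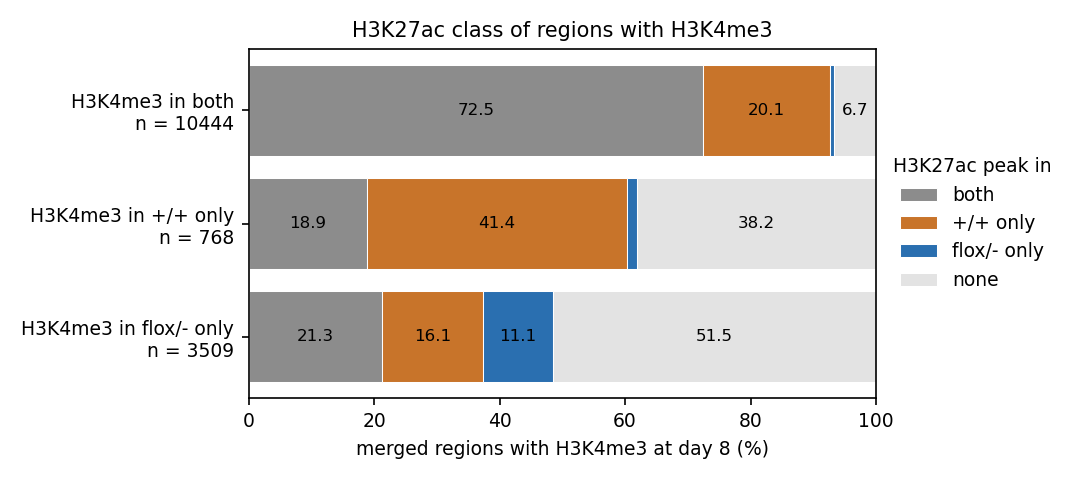
H3K27ac class (colours) of merged day 8 regions with H3K4me3 in both genotypes, in +/+ cells alone and in flox/- cells alone (rows, with their number), as % of the regions (horizontal axis). Of regions with H3K4me3 in both genotypes 20.1% had H3K27ac in +/+ cells alone and 0.737% in flox/- cells alone, and 51.5% of those with flox/- only H3K4me3 had no H3K27ac.

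The highest-scoring one-genotype H3K4me3 peaks followed the same division. All 5 flox/- only peaks with H3K27ac of their own genotype had both marks in -/- ES cells and in flox/- iPS cells. The one at chr14:22300616-22305677 (5062 bp) had neither mark in MEF or on day 4 and had H3K4me3, H3K27ac, Oct4 and Mi2B in the flox/- day 8 lists. In +/+ iPS cells all 4 were listed too, with Mbd3. The one at chr3:41359199-41363094 (3896 bp) had H3K27ac in MEF, without H3K4me3, and no Oct4 in any list. Of the 5 without H3K27ac, those at chr10:94405754-94408473 and chr3:107260872-107263336 carried H3K27me3 in MEF of both genotypes, in +/+ iPS and in -/- ES cells. The peak at chr9:40611380-40614007 lay 0.364 kb from a +/+ peak, so its class rests on the edge of that peak. Among the +/+ only peaks without H3K27ac, the 2 of highest score, at chr2:98506268-98507897 and chr9:35112674-35113555, overlapped both Oct4 lists of MEF, made before doxycycline, and lists of all 6 antibodies. Peaks on the flox/- MEF Oct4 list numbered 17 of 1036 +/+ only and 1 of 4368 flox/- only, and without peaks on either MEF Oct4 list the pluripotent-type difference was 23.3 points. The +/+ only peak at chr11:11934576-11936783 was 225.2 kb from any flox/- H3K4me3 peak of day 8. It was constant, with H3K4me3 in MEF, day 4 and iPS lists of both genotypes and in -/- ES cells, as was that at chr15:75508342-75509862.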

How the data were processed

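ChIP-seq peak lists of mouse cells were used as deposited by the authors, 1 list per library, with the authors' score for each peak. The submitters' processing notes name MACS 1.4.1 and Bowtie 0.12.5 beside CASAVA 1.8.2, with mm9 as build. Settings, the role of the inputs and read depth are not stated there. The deposited score, at least 50 in every list, was taken from its range to be a log-scaled p of the caller and was used only to rank or filter peaks within a list. Lists that differ in depth or enrichment differ in number and width of peaks, so a missing peak means not listed. Samples were grouped by title, 1 library per group. The members, lists and settings were chosen with earlier results of these data known. Overlap needed 1 bp. Named regions were the 5 peaks of highest score of each mark, genotype and kind (ties by width, chromosome and start), and the 3 longest runs of each genotype; those described singly, none on chromosome 18, were picked from these after their values were seen. Gene and marker lists were not run, since the gene tables used here are of another build. Overlaps were checked against bedtools 2.31.1 and on simulated data. Other settings tried were a minimum score of 100, 50% of the peak covered, and equal numbers of top peaks (21237 for H3K27ac, 13752 for H3K4me3). Peaks were also cut to 250 bp either side of the midpoint, or only their states were read in that window. Further settings were peaks 1000 to 3000 bp wide, autosomes, merged regions, a gap of 1 kb, and other reference lists. Ratios by state, the day 4 split, Oct4 overlap and the removal of peaks on MEF Oct4 were added after seeing the data. Python 3.11.15, numpy 2.4.6, scipy 1.17.1 and matplotlib 3.10.9 were used.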

Additional observations from a re-analysis of the deposited data

How the results depend on the processing

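The peaks shared by the genotypes depended on the settings. Of H3K27ac +/+ peaks, 43.0% were shared, and 40.3% from a score of 100 on, 41.1% where 50% of the peak had to be covered, 59.0% with equal numbers of top peaks, 22.9% with peaks cut to 500 bp, 38.9% as merged regions and 45.1% with a gap of up to 1 kb allowed. In the same order but without merging, flox/- H3K27ac peaks went from 69.1% to 71.3%, 55.1%, 55.9%, 42.5% and 70.7%. H3K4me3 +/+ peaks went from 92.5% to 90.2%, 91.3%, 89.3% and 76.3%, then 91.5% merged and 94.0% with the gap, and flox/- H3K4me3 peaks from 72.1% to 74.4%, 62.4%, 78.5%, 66.1% and 74.8% with the gap. With equal numbers the H3K27ac lists were shared about equally, which follows largely from their equal length. The part of list length in the surplus of +/+ only peaks was not tested.

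Of 98 values of 9 class differences under other settings, 79 kept their direction and whether their interval included 0. Another 7 turned, 2 no longer excluded 0 and 10 newly did. Among the 79 were 5 for fibroblast-type H3K4me3 and 4 for H3K4me3 in -/- ES cells, whose intervals included 0 as in the main setting. The distal share turned to -2.75 points with H3K4me3 of all stages. The Mi2B difference turned to 2.30 at scores of at least 100 and 0.572 with 50% covered, and its interval included 0 at -1.20 with the 1 kb gap and -0.0656 at the midpoint. The fibroblast-type H3K4me3 difference turned to 0.109 at scores of at least 100 and 0.402 for peaks 1000 to 3000 bp wide. Its interval excluded 0 at -0.761 with 50% covered, -0.618 with equal numbers, -22.1 with cut peaks, -2.74 with both lists of a stage required, and -0.655 and -2.89 with +/+ or flox/- reference lists alone. The H3K4me3 difference in -/- ES cells turned to -1.35 at scores of at least 100 and -0.211 for peaks 1000 to 3000 bp wide, and excluded 0 at 3.19 with 50% covered, 2.51 with equal numbers, 31.7 with cut peaks and 3.59 with the gap. The causes were not tested. The +/+ to flox/- ratio at sites in neither cell type turned to 0.342 with equal numbers. The Oct4 difference was 0.209 points with 50% covered, where its interval included 0, a setting that narrow Oct4 peaks seldom reach on wide H3K27ac peaks.

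No paired analysis was possible because each group has 1 library, and leaving a replicate out was not possible for the same reason. Depth per library is unknown, and an unmarked site cannot be told apart from one below the caller's limit.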
